A study of Mus musculus with 7 samples.

Results

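Voltage-gated calcium channel genes were examined in mouse embryonic stem cells in which the neuronal transcription factor NeuroD1 was switched on. The 10 genes described are the alpha1 genes Cacna1a, Cacna1b, Cacna1c, Cacna1d, Cacna1e, Cacna1g and Cacna1h and the alpha2delta genes Cacna2d1, Cacna2d2 and Cacna2d3. These 10 genes, of 21937 in the authors' deposited table, were chosen by name and with the comparison below already known, so their changes are given as a description and not as a test. The cells were of the A2lox line on a 129/Ola background, which carries the NeuroD1 transgene under a doxycycline-responsive promoter in both groups. Uninduced cells (-Dox, 2 libraries) received no doxycycline, and induced cells (+Dox, 2 libraries) received 500 ng/ml for 48 h. Polyadenylated RNA was sequenced after the feeder cells had been removed by passaging.

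Voltage-gated calcium channels open when the membrane depolarizes and let calcium into the cell. The alpha1 subunit forms the pore and sets the channel type: P/Q-type (Cacna1a), N-type (Cacna1b) and R-type (Cacna1e) channels trigger transmitter release and shape dendritic signals, L-type channels (Cacna1c, Cacna1d, Cacna1f, Cacna1s) couple depolarization to contraction and to gene transcription, and T-type channels (Cacna1g, Cacna1h, Cacna1i) open near the resting potential and support burst firing. Extracellular alpha2delta subunits and cytosolic beta subunits carry the pore to the surface and tune its gating, and the gamma genes encode relatives of a muscle channel subunit, several of which instead regulate AMPA-type glutamate receptors.

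All values are group means of normalized read counts as the authors deposited them. They carry no spread between libraries, since a further table of single libraries has column names that match no sample label and was not used. The depth of each library was therefore not used either. The labels do not say whether the 2 libraries of a group are separate cultures, so the authors' p-values may reflect technical spread alone. None of the libraries here came from cells given doxycycline without the transgene, hence the drug and NeuroD1 cannot be told apart, and in bulk RNA more cells with a transcript and more transcript per cell cannot be told apart. Neurod1 itself went from 438 to 4371 normalized reads in the authors' deposited table, transgene and endogenous gene together. Stem cell and neuronal markers were both measured. Over all 18283 genes with a p-value, 19.1% rose and 16.4% fell by the authors' adjusted p of 0.05. Of 8 neuronal marker genes all 8 rose, and their summed level went from 5448 to 20119 normalized reads. Of 7 pluripotency genes 6 fell, with a sum of 47343 before and 27175 after induction. Their part in the channel results was not tested.

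Of the 10 genes, 9 rose after induction and 0 fell by the authors' adjusted p of 0.05 (DESeq with Benjamini-Hochberg adjustment). Among all 18283 genes with a p-value 19.1% rose and 16.4% fell, and nothing is read from the difference because the genes were chosen on this comparison. The median log2 change of the 10 genes was 1.37 with a pseudocount of 1, beside -0.0094 for all genes with a p-value. All 10 had a p-value and a mean over both groups of at least 10 normalized reads. At an adjusted p of 0.01 the count was also 9, beside 15.6% of all genes higher and 12.9% lower. With a minimum change of 2-fold it was 7, beside 7.48% higher and 4.2% lower. With p-values adjusted over the 14388 genes averaging at least 10 reads, 9 rose and 1, Cacna1a, fell (adjusted p = 0.043), beside 24.7% and 21.5%. In the authors' own adjustment the exception was Cacna1a, which was not called and was the gene with the most reads in uninduced cells. The spread among the 10 genes was wide, from a log2 change of -0.26 for Cacna1a to 2.74 for Cacna2d3.

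**Figure D1:**
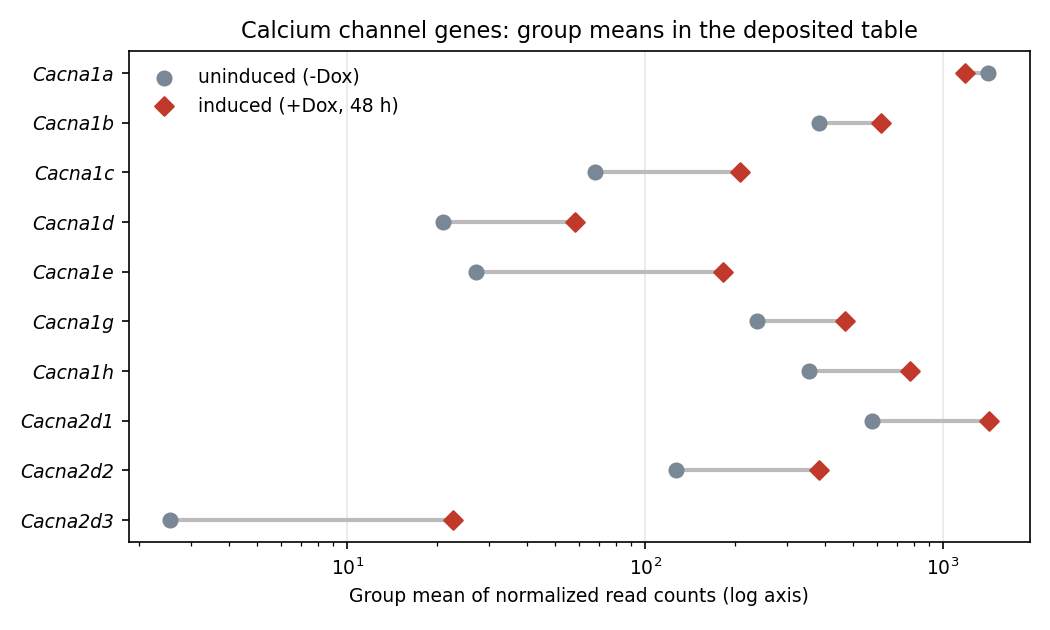
Group means of normalized read counts (log axis) of the 10 calcium channel genes in uninduced cells (grey circles) and in cells induced for 48 h (red diamonds), joined by a line per gene; the deposited means carry no error. Cacna1a is the only gene whose induced mean lies left of its uninduced mean (1184 against 1416), and Cacna1e and Cacna2d3 have the longest lines.

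Sequences before the start sites are shown as a description, and whether NeuroD1 acts through them was not tested. NeuroD1 is known to bind E-boxes, CANNTG, with CAGATG and CAGCTG among the preferred forms. RefSeq promoter windows on build GRCm38.p6, from 250 bases before to 50 bases after a start site, were found for 7 of the 10 genes, in 10 windows. There were none for Cacna1a, Cacna1g and Cacna1h. Both strands were searched, CAGATG being CATCTG on the other strand, and both hexamers are also counted as CANNTG. The hexamer CAGATG was in 2 of the 10 windows and in 17.2% of all 32851 windows. CAGCTG was in 4 of 10 against 16.3%, and any CANNTG in 6 of 10 against 72.3%. Both windows with CAGATG are of Cacna1c. A further window of Cacna1c holds a CAGCTG, which begins at position 27 from the start site. A gene with several windows thus counts more than once. The windows of the 7 genes were rich in GC, with a median of 74.0% beside 52.7% over all windows and a range from 40.3% to 87.3%. A match is a description of the letters and not a site of binding. The 5 windows below, 5′ to 3′ on the strand of the gene with the CAGATG hexamer (CATCTG when read from the other strand) and the CAGCTG hexamer in capitals, are those of the R-type gene Cacna1e and of Cacna2d3, which had the largest log2 changes of the 10, and of Cacna1c, Cacna1d and Cacna1b, in which a hexamer lies in a GC-rich window.
Cacna1e, chr1:154725871-154726170, minus strand: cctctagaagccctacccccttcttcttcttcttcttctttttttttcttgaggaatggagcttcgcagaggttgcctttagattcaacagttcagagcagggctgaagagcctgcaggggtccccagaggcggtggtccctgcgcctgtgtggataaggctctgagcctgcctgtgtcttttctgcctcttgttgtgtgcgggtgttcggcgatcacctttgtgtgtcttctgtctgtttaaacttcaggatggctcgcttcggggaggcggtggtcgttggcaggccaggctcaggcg
Cacna2d3, chr14:29721815-29722114, minus strand: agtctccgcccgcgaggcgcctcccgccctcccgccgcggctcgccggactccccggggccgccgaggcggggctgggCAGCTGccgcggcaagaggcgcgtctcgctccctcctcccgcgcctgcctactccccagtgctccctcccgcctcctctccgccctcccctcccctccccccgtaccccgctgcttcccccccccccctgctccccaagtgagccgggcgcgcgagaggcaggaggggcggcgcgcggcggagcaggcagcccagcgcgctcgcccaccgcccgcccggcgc
Cacna1c, chr6:119108446-119108745, minus strand: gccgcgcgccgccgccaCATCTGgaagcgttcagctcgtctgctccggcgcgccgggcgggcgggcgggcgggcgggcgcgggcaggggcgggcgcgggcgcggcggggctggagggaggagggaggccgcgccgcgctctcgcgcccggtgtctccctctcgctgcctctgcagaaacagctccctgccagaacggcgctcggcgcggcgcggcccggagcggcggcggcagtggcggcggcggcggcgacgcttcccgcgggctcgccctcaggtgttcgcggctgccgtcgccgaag
Cacna1d, chr14:30353437-30353736, minus strand: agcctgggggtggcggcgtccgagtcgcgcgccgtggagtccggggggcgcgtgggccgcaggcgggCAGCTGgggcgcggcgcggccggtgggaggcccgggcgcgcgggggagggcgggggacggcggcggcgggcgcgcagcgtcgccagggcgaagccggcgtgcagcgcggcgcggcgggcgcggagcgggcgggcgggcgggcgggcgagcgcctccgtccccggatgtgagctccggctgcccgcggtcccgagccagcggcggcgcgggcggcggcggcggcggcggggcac
Cacna1b, chr2:24763103-24763402, minus strand: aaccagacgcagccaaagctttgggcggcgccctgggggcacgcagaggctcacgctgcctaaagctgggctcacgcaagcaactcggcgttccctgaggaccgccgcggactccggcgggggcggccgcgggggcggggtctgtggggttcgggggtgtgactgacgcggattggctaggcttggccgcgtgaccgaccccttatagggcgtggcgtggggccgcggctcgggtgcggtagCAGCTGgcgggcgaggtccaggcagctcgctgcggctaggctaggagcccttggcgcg
Cacna1e, with a log2 change of 2.71, had no CANNTG in its window. The hexamer of Cacna2d3 began at position -172 from the start site, that of Cacna1d at -183, that of Cacna1c at -233 and that of Cacna1b at -8. Cacna1c has another 2 windows and Cacna1d another 1 in the table, and reads counted per gene do not say which start site was used. The windows of Cacna2d1 and Cacna2d2 held no CANNTG either. Whether the annotated start sites, that of Cacna1e included, are those used in these cells was not tested. An E-box outside a window is not seen, so nothing is read from a window without one.

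Of the P/Q-type, N-type and R-type pore genes, Cacna1b and Cacna1e rose and Cacna1a did not pass; differences between the genes were not tested. Cacna1a, the pore of the P/Q-type channel that drives transmitter release at most central synapses, had 1416 normalized reads before and 1184 after induction in the authors' deposited table. That is 0.836-fold (authors' DESeq adjusted p = 0.054). Cacna1b, the N-type pore and target of omega-conotoxin, rose from 382 to 617 reads, 1.62-fold (authors' deposited DESeq adjusted p = 0.0017). Cacna1e, the R-type pore, rose from 27.1 to 183 reads, 6.75-fold (authors' deposited DESeq adjusted p = 1.2e-22). The rise of Cacna1e thus had the smallest p of the 10 genes although it began at a low level, and it ranked 380 from the top among 18283 genes by log2 change. Cacna1b ranked 2735 and Cacna1a 12328 on the same scale.

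Both L-type members rose from low levels. Cacna1c, the L-type pore of heart, smooth muscle and brain, went from 67.8 to 209 normalized reads, 3.08-fold (authors' deposited DESeq adjusted p = 0.0037). Cacna1d, the L-type pore that opens at more negative potentials and serves pacemaking and inner hair cells, went from 20.9 to 58.4 reads, 2.79-fold (authors' deposited DESeq adjusted p = 0.00078). Of the 10 genes, Cacna1c had the largest adjusted p among those that rose. The remaining L-type genes did not pass: Cacna1f, known from retinal photoreceptors, had 6.32 and 9.07 reads and Cacna1s, the skeletal muscle pore, 81.6 and 69.6 in the authors' deposited table (DESeq adjusted p = 0.86 and 0.62).

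Both T-type members rose, from higher levels than the L-type genes. Cacna1g went from 237 to 468 normalized reads, 1.97-fold (authors' deposited DESeq adjusted p = 1.9e-05), and is known for thalamic burst firing. Cacna1h, the T-type pore of sensory neurons, went from 355 to 775 reads, 2.18-fold (authors' deposited DESeq adjusted p = 1.8e-09). The third T-type gene, Cacna1i, is not among the 10 genes but rose furthest in the family, from 5.00 to 72.2 reads or 14.4-fold (authors' deposited DESeq adjusted p = 1.3e-12). It ranked 168 from the top of all genes by log2 change, above each of the 10. The calls by type, which mix the chosen genes with others of the family, were 3 of 3 T-type, 2 of 3 P/Q, N and R-type and 2 of 4 L-type genes higher, beside 19.1% of all genes. Differences between the types were not tested.

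Of the 4 alpha2delta genes, the 3 chosen with this comparison known rose, beside 19.1% of all genes with a p-value. Nothing is read from this count of the alpha2delta genes. Cacna2d1, a binding target of gabapentin, had the most reads of them and went from 577 to 1424 normalized reads, 2.47-fold (authors' deposited DESeq adjusted p = 2.1e-05). Cacna2d2, the gene mutated in the ducky mouse, went from 127 to 384 reads, 3.03-fold (authors' deposited DESeq adjusted p = 4.2e-20). Cacna2d3 began near 0 and went from 2.54 to 22.6 reads, 8.91-fold (authors' deposited DESeq adjusted p = 0.00086). At so few reads the size of that fold is uncertain, and with a pseudocount of 5 its log2 change was 1.87 in place of 2.74. Cacna2d4, the member of the retina, had 1.93 and 3.90 reads (authors' deposited DESeq adjusted p = 0.81) and so was not called.

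**Figure D2:**
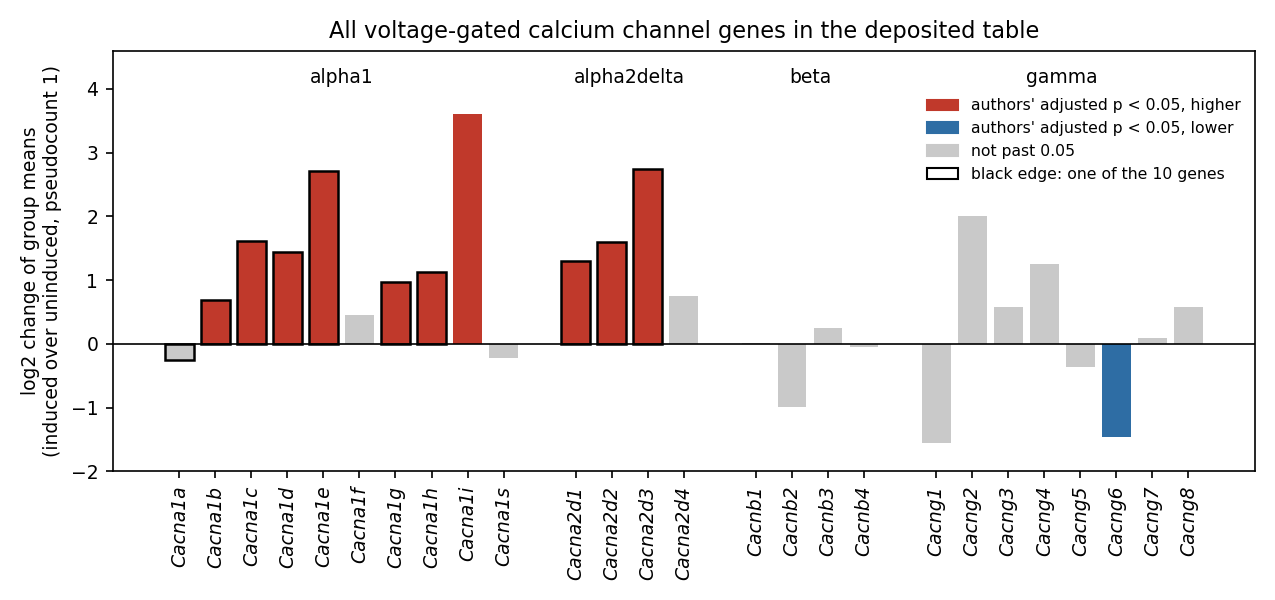
Log2 change of group means, induced over uninduced with a pseudocount of 1, for all 26 voltage-gated calcium channel genes in the deposited table, by subunit; red bars passed the authors' adjusted p of 0.05 upwards, blue downwards, grey did not pass, and a black edge marks the 10 genes. The red bars lie in the alpha1 and alpha2delta groups, none of the 4 beta genes passed, and Cacng6 is the blue bar. The 10 genes are all alpha1 or alpha2delta genes chosen with this comparison known, so nothing is read from the difference between the subunit groups.

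The family genes beyond the 10 showed few calls. These 16 are 3 alpha1 genes, 1 alpha2delta gene, 4 beta genes and 8 gamma genes. Among them 1 rose (the alpha1 gene Cacna1i) and 1 fell (the gamma gene Cacng6), and 14 did not pass. Over all genes with a p-value 19.1% rose and 16.4% fell. Of the 16, 11 had a mean over both groups of at least 10 normalized reads, and the median log2 change was 0.17. Since the 10 were chosen with this comparison known, nothing is read from how they differ from the 16. None of the 4 beta genes passed. Cacnb3, the beta gene with the most reads, had 707 and 843 normalized reads in the authors' deposited table (DESeq adjusted p = 0.057), and Cacnb1, the beta subunit of skeletal muscle channels, 141 and 143 (adjusted p = 1). Cacnb2, known from heart, had 37.6 and 18.3 reads in the authors' deposited table (DESeq adjusted p = 0.12), and Cacnb4, the gene of the lethargic mouse, 30.8 and 29.9 (adjusted p = 1). A p that misses the threshold does not show that the beta genes stayed level. Of the 8 gamma genes Cacng6 fell, from 63.1 to 22.3 reads or 0.353-fold (authors' deposited DESeq adjusted p = 0.015), a call lost at a threshold of 0.01. Cacng7 had the most reads of them, 570 and 605 in the authors' deposited table (DESeq adjusted p = 0.71). Stargazin, Cacng2, which carries AMPA receptors to synapses, had 0.464 and 4.90 reads there and Cacng4 10.3 and 25.9, and neither passed (DESeq adjusted p = 0.23 and 0.34). Cacng1, the gamma subunit of skeletal muscle channels, went from 1.93 to a listed 0, and Cacng3, Cacng5 and Cacng8 had between 1.00 and 30.4 reads in either group of the authors' deposited table without passing.

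Levels were compared between genes per kilobase of exon, with exon lengths from the union of curated RefSeq transcripts on GRCm38.p6, which may differ from the gene models the authors counted on. On this scale Cacna1a had the highest level of the 10 alpha1 genes in both groups, 179 reads per kb before and 149 after induction. Cacna1h came next (43.2 and 94.2 reads per kb), before Cacna1b (39.1 and 63.1) and Cacna1g (28.9 and 56.9), in both groups. Below them Cacna1e moved from place 8 to place 5 (2.14 and 14.4 reads per kb), with Cacna1c in place 6 in both groups (4.59 and 14.1). Cacna1d, at 2.24 and 6.24 reads per kb, was in place 7 before and place 9 after induction. Without a spread per gene, neighbours in this order such as Cacna1h and Cacna1b in uninduced cells, or Cacna1e and Cacna1c in induced cells, cannot be called different.

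Summed over the alpha1 genes, the level went from 313 to 418 reads per kb, 1.34-fold. Cacna1a made up 57.1% of that sum in uninduced and 35.7% in induced cells. The share of the T-type genes was 23.2% before and 37.9% after induction, that of the P/Q, N and R-type genes 70.2% and 54.3%, and that of the L-type genes 6.62% and 7.85%. The sum of the T-type genes went from 72.6 to 158 reads per kb (2.18-fold), while the sum of the P/Q, N and R-type genes went from 220 to 227, with Cacna1a lower and Cacna1b and Cacna1e higher. The alpha2delta sum went from 101 to 266 reads per kb (2.64-fold), of which Cacna2d1 held 76.3% before and 71.4% after induction. Among the beta genes Cacnb3 stood highest per length, at 235 and 280 reads per kb. These sums are descriptions of the deposited means, with no error.

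**Figure D3:**
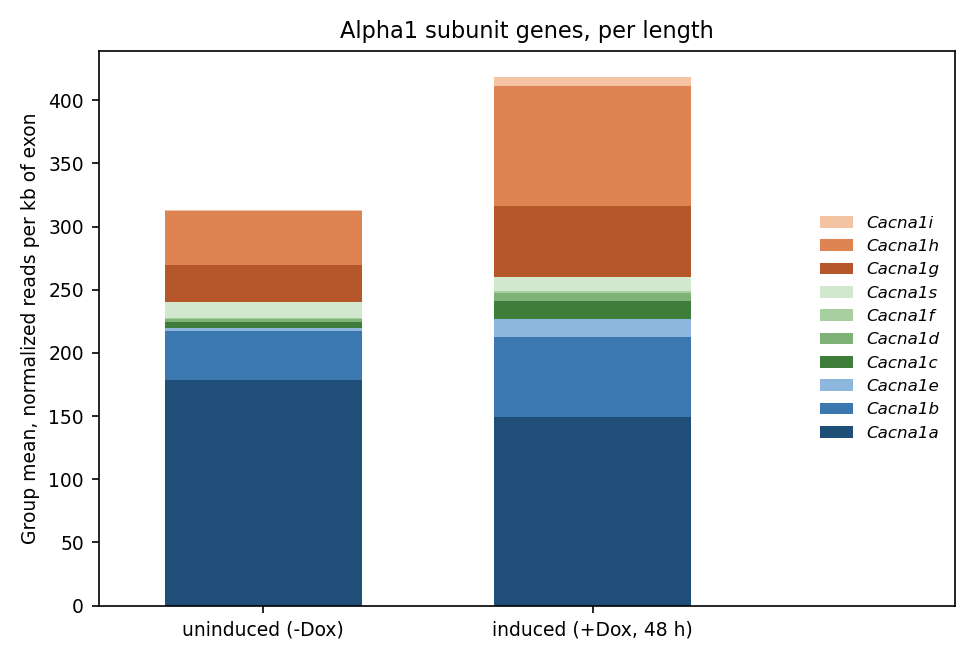
Stacked group means of the 10 alpha1 subunit genes in normalized reads per kb of exon, uninduced (left) and induced for 48 h (right); blue shades are P/Q, N and R-type, green L-type and orange T-type genes, and no error is available. The orange part goes from 72.6 to 158 reads per kb, while Cacna1a, the dark blue base, is 179 in uninduced and 149 in induced cells.

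The 10 genes share a large size. Their median span in the GRCm38.p6 RefSeq table was 371 kb, from 62.0 kb for Cacna1h to 818 kb for Cacna2d3, beside a median of 20.7 kb for all genes with a p-value, and 8 of 10 spanned at least 100 kb. Of the 2340 genes that long with a p-value, 39.7% rose and 11.4% fell, so long genes as a whole were called higher more often than the 19.1% over all genes. Long genes were looked at after the values of the 10 genes had been seen, and the part of length in the result was not tested. The genes lie on 9 chromosomes, and Cacna1d and Cacna2d3 share chromosome 14. Protein-coding genes on the other strand overlap 4 of the 10 in that annotation. Cacna1d overlaps Dcp1a (1298 and 1382 reads) and Chdh (28.7 and 18.2), and Cacna1c overlaps Dcp1b (140 and 191), none of which passed in the authors' deposited table. Tpsg1, which overlaps Cacna1h, and Lrtm1, which overlaps Cacna2d3, were listed at 0 in uninduced cells and at 0.477 and 2.56 reads in induced cells of the authors' deposited table. Whether reads were counted by strand is not given in the sources used here, so reads in shared exons cannot be assigned with certainty.

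Proteins that act directly on the channels gave mixed calls, and the NALCN leak channel, which is not such a protein, is given beside them. Of 4 RGK inhibitors, small GTPases that keep calcium channels from the surface or block them, 1 rose, and the median log2 change of the list was 0.25. That was Gem, from 14.9 to 109 reads or 7.30-fold (authors' deposited DESeq adjusted p = 7.8e-15), whereas Rrad (40.6 and 46.9), Rem2 (84.7 and 105) and Rem1 (5.47 and 4.94) did not pass. Among the 3 STAC adaptors, which help L-type channels to reach or stay at the membrane, Stac2 fell to 0.493-fold (304 to 150 reads, authors' deposited DESeq adjusted p = 2.0e-08), and Stac and Stac3 did not pass. In the list of presynaptic anchors that hold calcium channels near vesicles, 4 of 10 rose and 0 fell (median log2 change 0.31). Cask, a scaffold kinase, rose 1.83-fold, Rims2 1.33-fold, the RIM-binding protein gene Rimbp2 1.94-fold and Erc1 1.18-fold in the authors' deposited table (DESeq adjusted p = 2.2e-11, 0.0017, 0.012 and 0.022). The NALCN leak channel, a relative of calcium channels that carries sodium, had 3 of 3 measured genes rising (median log2 change 2.96). Those were Nalcn at 2.24-fold, Unc79 at 10.5-fold and Unc80 at 8.01-fold, per the authors' deposited table. The symbols Nalf1 and Nalf2 of that list were not matched.

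Calcium sensors and kinases downstream of the channels rose in part. Of 12 calmodulin and sensor genes with a p-value 6 rose and 1 fell (median log2 change 0.33). The hippocalcin gene Hpca went from 44.4 to 242 reads, 5.45-fold (authors' deposited DESeq adjusted p = 3.9e-25), Ncs1 rose 1.81-fold, and Cabp1, a calmodulin-like regulator of calcium channels, fell to 0.497-fold in the authors' deposited table. Of 13 calmodulin kinase genes 6 rose and 2 fell (median log2 change 0.27). Camk1g rose from 2.93 to 35.6 reads in the authors' deposited table, 12.2-fold, and at so few reads the size of that fold is uncertain. With a pseudocount of 5 its log2 change was 2.36 in place of 3.22. The kinase inhibitor gene Camk2n1 rose 2.86-fold in the authors' deposited table. Camk2b was at 0.672 and Camk1d at 0.546 times its uninduced mean there, both called lower. Activity-regulated genes, which calcium entry switches on in mature neurons, included 1 rise and 4 falls among 11 (median log2 change -0.18). Arc fell from 357 to 129 reads, Nr4a1 from 471 to 222, Junb from 543 to 292 and Egr1 from 458 to 292 in the authors' deposited table, and Homer1 rose 1.25-fold, while Fos, Npas4 and Bdnf did not pass.

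Calcium stores, pumps and buffers showed calls in both directions. Of 6 intracellular release channel genes 2 rose and 1 fell (median log2 change 0.062). The ryanodine receptor gene Ryr3 rose from 92.6 to 356 reads, 3.85-fold (authors' deposited DESeq adjusted p = 5.6e-24), Itpr1 rose 1.14-fold (adjusted p = 0.048), and the IP3 receptor gene Itpr3 fell from 2447 to 1250 (adjusted p = 1.8e-27). Among 12 pumps and exchangers 2 rose and 2 fell (median log2 change -0.060). The sodium-calcium exchanger gene Slc8a1 rose 2.97-fold and the plasma membrane pump gene Atp2b2 1.53-fold in the authors' deposited table, whereas the SERCA pump gene Atp2a2 fell to 0.683-fold and the secretory pathway pump gene Atp2c2 to 0.358-fold. All 5 genes of store-operated entry, the route of calcium entry in cells that are not excitable, were called, 2 higher and 3 lower (median log2 change -0.52). Stim1 fell to 0.692-fold, Orai1 to 0.660-fold and Orai3 to 0.695-fold per the authors' deposited table, while the calcium sensor gene Stim2 rose 1.23-fold and the pore gene Orai2 1.82-fold. None of the 3 cytosolic buffer genes passed (median log2 change -0.40), and Calb1 and Pvalb were at 2.54 reads or less in both groups of the authors' deposited table. Over these 11 lists, 27 of 82 genes with a p-value rose and 14 fell, beside 19.1% higher and 16.4% lower over all genes, and nothing particular to calcium handling is read from these counts.

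**Figure D4:**
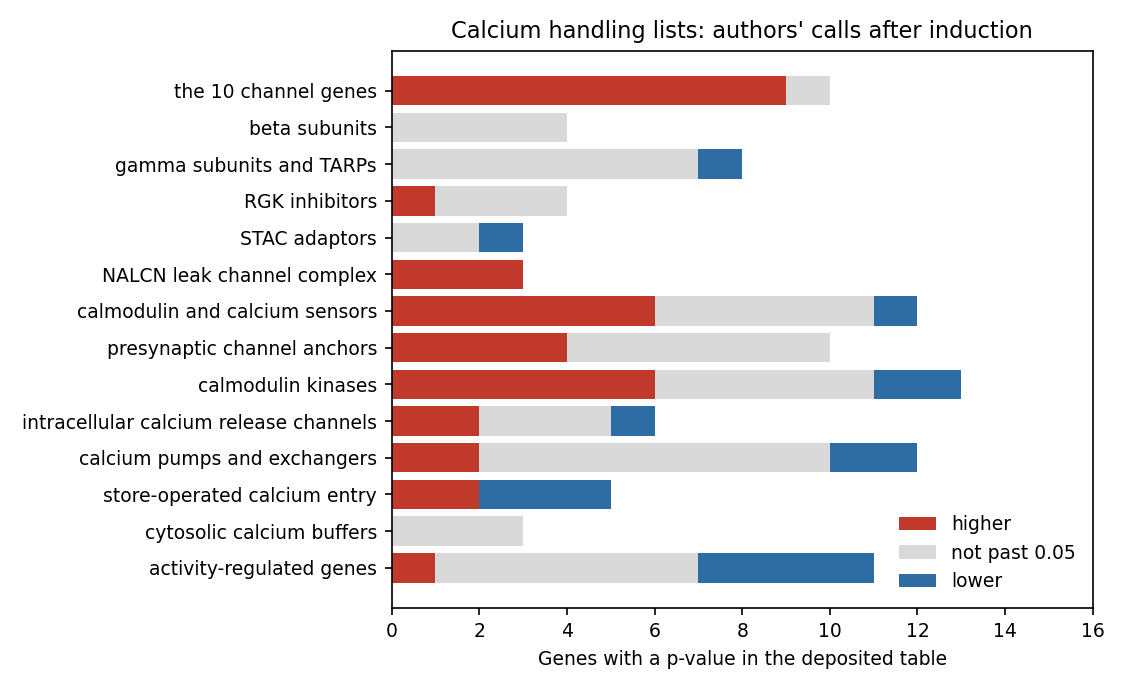
Number of genes with a p-value per list (horizontal axis) that were called higher (red), not past an adjusted p of 0.05 (grey) or lower (blue) by the authors' deposited DESeq test, for the 10 channel genes, the beta and gamma genes and 11 lists of calcium handling. The 10 channel genes, chosen with this comparison known, show 9 red and 0 blue. The beta list is all grey, and store-operated entry splits into 2 red and 3 blue.

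Markers of other cells that use calcium channels were measured beside these, and over all genes with a p-value 19.1% rose and 16.4% fell. Of 9 skeletal and cardiac muscle genes 1 rose, the titin gene Ttn (892 to 6106 reads in the authors' deposited table), and 0 fell; Myod1 had 2.00 and 3.04 reads, Myog 1.47 and 0.997, and the median log2 change was -0.51. Of 6 endocrine pancreas genes 4 were at 0 in both groups, and the sum of the list was 1.54 and 0.953 reads. Of 7 glial genes 1 rose, Mbp, and the sum was 443 before and 660 after induction. Of 8 fibroblast genes, which stand for feeder cells, 2 rose (Acta2, Col3a1) and 2 fell (Dcn, Thy1), with a sum of 3419 and 5706 reads. Acta2 went from 904 to 2702 reads and Col3a1 from 265 to 485, Dcn from 59.2 to 10.9 and Thy1 from 151 to 56.9. The sum thus rests largely on Acta2 and is not read as an amount of feeder cells. The part of these markers in the channel results was not tested.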

How the data were processed

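RNA of 4 libraries, 2 uninduced and 2 induced, was compared. Per the submitters' processing notes reads were handled for build mm9 with DESeq, HTSeq 0.5.4p1, SAMtools 0.1.19, TopHat2 2.0.8 and FastQC 2.6.14, listed without role or order. The authors' deposited table holds group means of normalized read counts (a signal relative to their own normalization), the fold change as a ratio, its log2 value, and p-values with adjusted p-values. The deposited ratio equalled induced over uninduced mean, and the adjusted p equalled a Benjamini-Hochberg adjustment over 18283 genes, in 100% of cases at a relative tolerance of 1e-06. The other 3654 genes were at 0 in both groups. Group means sum to 17303851 and 17359374, which is not the depth of a library. A second deposited table has 4 columns of single libraries whose names match no sample label, and these 4 columns were not used, so the limma fit that had been planned was not made and the authors' adjusted p, with a threshold of 0.05, stands in its place. The 3 DNA samples, 2 NeuroD1 ChIP-seq libraries and 1 input, were not analysed here, so binding near the genes was not examined.

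Log2 changes were computed from the group means after adding a pseudocount of 1, so changes of genes with few reads are understated. The 10 genes and the lists were chosen with earlier results of these data known. All 10 genes and all family genes are named, and up to 4 genes per other list by smallest adjusted p; a few others that did not pass, and marker genes, are named to complete a count. A gene that this rule takes is not reported here. Of 146 list symbols 144 were matched, older ones through RefSeq synonyms. Counting and adjustment were tested on simulated data. The software was matplotlib 3.10.9, scipy 1.17.1, pandas 2.3.3 and numpy 2.4.6 in Python 3.11.15. Alternatives were pseudocounts of 0.5 and 5, equal totals or medians, a threshold of 0.01, a 2-fold minimum and an adjustment over genes with a mean of 10 or more.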

Additional observations from a re-analysis of the deposited data

How the results depend on the processing

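The 10 channel genes kept their direction under pseudocounts of 0.5 and 5 and under scaling to equal totals or equal medians, and their median log2 change lay between 1.29 and 1.38. A threshold of 0.01 changed no call of the 10, but Cacng6, Hpcal1, Rimbp2, Erc1, Itpr1, Atp2b2, Stim2, Camk2a and Homer1 were no longer called, which left 20 higher and 14 lower in place of 28 and 15 over the other family genes and the lists. With a 2-fold minimum Cacna1b and Cacna1g were no longer called, which left 7 higher. Adjusting over the 14388 genes averaging at least 10 reads made Cacna1a lower (adjusted p = 0.043), so that 1 of the 10 fell in place of 0, because fewer genes enter the adjustment. Cacnb3 became higher in that setting too (adjusted p = 0.045). Over the family genes outside the 10 and the other lists together, 28 higher and 15 lower genes became 12 and 6 with a 2-fold minimum. Scaling to equal medians, a shift of -0.079 on the log2 scale, turned the median of the release channel list from 0.062 to -0.017. No paired analysis was possible because the library columns, which would carry the replicate numbers, match no sample label; for the same reason fits without single libraries, other filters in a per-library fit and count tests were not run. The deposited means give no spread, so low genes such as Cacna2d3 are the least certain.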
